A study of Mus musculus with 15 samples.

Results

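Libraries labelled as ventricular cardiomyocytes, the contracting muscle cells of the lower heart chambers, were compared between mice of postnatal day 3 (P3) and adult mice of 8 to 12 weeks. The comparison takes the 4 P3 and 7 adult columns of a deposited RNA-seq table, which is 11 of the 15 libraries of the series, and all of its 9666 rows. All mice are labelled wild-type C57BL/6, with no transgene or treatment. The cells were isolated from heart and total RNA was sequenced. The labels do not say whether a library is 1 animal or a pool, and the spread that p-values measure is that between libraries, which may be technical. The question set by the study is which genes separate neonatal heart muscle, which can still regenerate, from adult heart muscle.

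As background, mouse cardiomyocytes divide for a short time after birth and then leave the cell cycle. Over the following weeks they exchange fetal and ubiquitous protein isoforms for adult muscle isoforms, line up their sarcomeres and calcium stores, and shift from glucose to fatty acids as fuel. Enzymatic isolation of heart cells also releases endothelial cells, fibroblasts and pericytes, which are far smaller than an adult cardiomyocyte but numerous.

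Values are deposited RPKM, read counts scaled for gene length and library depth, so levels can be compared between genes per length. The lowest value in the table is 0.1001 RPKM, so every listed gene exceeds 0.1 RPKM in all libraries and genes silent in any library are not analysed here. Reads recovered from the RPKM steps of 8717 genes came to 9584795 to 12314378 in the P3 libraries, 1867864 to 2195770 in adult replicates 1 to 4 and 4682688 to 4906187 in adult replicates 5 to 7. Values of adult replicates 1 to 4 came in steps of 2 units where all other libraries had steps of 1, and each step was taken as 1 read, so the unit behind these 4 totals may differ from the rest. Low adult values carry the larger counting error, and 1165 of those genes had under 10 reads in some library. Changes are P3 minus adult on the log2(RPKM + 0.5) scale, which understates the change of low genes. They were tested with limma over 9218 genes that reached 1 RPKM in at least 4 of the 11 libraries, and a gene is said to rise or fall where the adjusted p was under 0.05 and the absolute log2 change at least 1. Of the tested genes, 628 had no adult library and 108 no P3 library at 1 RPKM, so these had to be high in the other group to be tested. Among the genes named below, H19 and Psat1 were of the first kind and Rpl3l and Asb14 of the second. No limma p-value is given for them.

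The labelled cell type was checked against 18 cardiomyocyte markers, all of them in the table. Their summed level was 21006 to 40509 RPKM in the adult libraries and 8025, 2014, 1118 and 934.5 RPKM in P3 replicates 1 to 4. Of the 18 markers 16 fell in P3, 1 rose (Nppa) and 1 was not called (Myh7), with a median log2 change of -3.16. The 14 listed endothelial markers, of 18 fixed, summed to 1271, 1401, 2259 and 3071 RPKM in P3 replicates 1 to 4 and to 10.04 to 1327 RPKM in adult libraries. In P3 replicates 3 and 4 the endothelial sum was above the cardiomyocyte sum. The 9 listed fibroblast markers, of 16 fixed, summed to 1797, 2711, 2524 and 1980 RPKM in P3 replicates 1 to 4 and 6.10 to 158.0 RPKM in adult. In P3 replicates 2, 3 and 4 the fibroblast sum was above the cardiomyocyte sum. Vimentin (Vim), with values given below, held most of the fibroblast sum in each P3 library. The rest of that sum was under the cardiomyocyte sum. By mean log2 level, which weighs genes equally, the fibroblast list was at 5.76, 5.94 and 5.45 in P3 replicates 2 to 4. The cardiomyocyte list was at 5.63, 4.98 and 4.76 there. By these markers the P3 label is in doubt as a description of a pure cell type, in replicates 2 to 4 above all, and they are called P3 libraries here. The 7 listed mural and smooth muscle markers, of 12 fixed, summed to 838.2 to 1346 RPKM in P3 and 173.1 to 474.1 RPKM in adult. This list was mixed. Of 6 tested members 3 rose (50%, against 63.6% of all tested genes), 1 fell and 2 were not called. The fall was desmin (Des, -2.99), which is also on the desmosome and gap junction list. Lists of immune, erythroid, epicardial and Schwann cell or neuronal markers had 0 rows here and could not be used. No listed marker was at 0 in any library. In bulk RNA, fewer cells of a type and less RNA per cell cannot be told apart, and the part that other cell types have in each change given here was not tested.

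**Figure D1:**
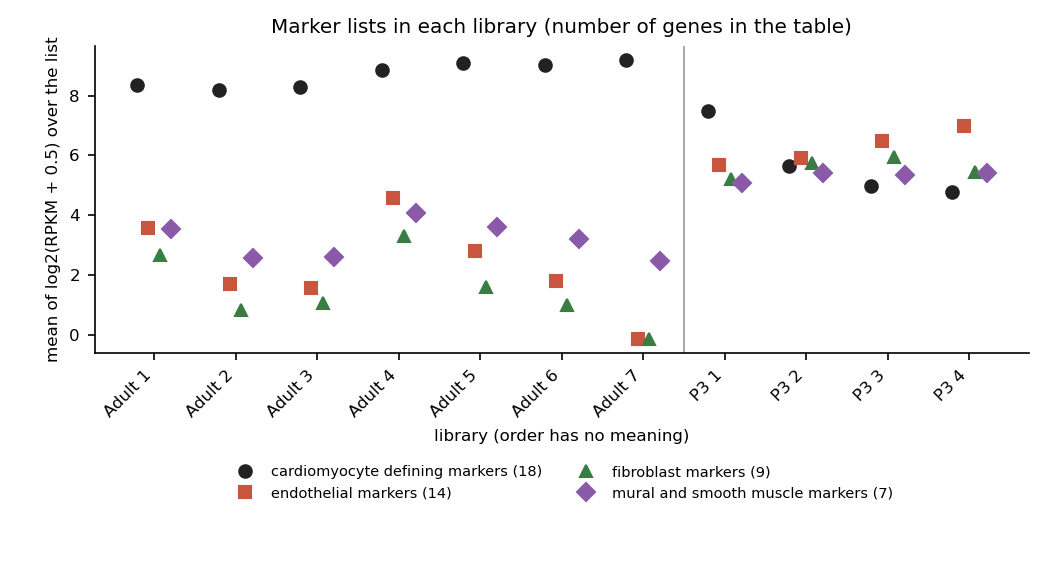
Mean log2(RPKM + 0.5) of 4 marker lists (y axis) in each of the 7 adult and 4 P3 libraries (x axis), with 1 point per list and library. Cardiomyocyte markers lie at 8.19 to 9.20 in adult libraries and at 7.47, 5.63, 4.98 and 4.76 in P3, while endothelial markers lie at 5.69 to 6.99 in P3 and at -0.15 to 4.56 in adult libraries.

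Libraries differed within groups as well. P3 replicate 1 had the highest P3 value in 744 of the 859 genes that fell, and stood a median of 1.20 log2 units above the mean of the other 3 P3 libraries there, against 0.08 over all tested genes. Adult replicate 4 held the highest adult value in 44.9% of the genes that rose, and adult replicates 4 and 1 were the 2 highest adult libraries in endothelial and fibroblast markers. Summed RPKM over the table was 280112 in adult replicate 4, 145050 to 195003 in the other 6 adult libraries and 228162 to 321035 in P3. Without P3 replicate 1 the counts of genes that rose and fell were 5766 and 970. Without adult replicates 1 and 4, a choice made after the data were seen, they were 5918 and 846.

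Across all tested genes, 5863 rose in P3 (63.6%) and 859 fell (9.32%), and the median gene changed by 1.51, a 2.84-fold rise. All P3 libraries lay above all adult libraries in 64.8% of tested genes and below them in 8.08%. Against adult replicates 1 to 4 alone 6095 genes rose and 779 fell, and against adult replicates 5 to 7 alone 5475 and 960. The 10 genes highest in adult libraries, among them Myl2, Mb, Actc1 and Myh6, held 17.1% to 19.2% of the summed RPKM in each adult library and 0.444% to 2.62% in each P3 library. Because the median gene is itself shifted, each list is also given relative to the median gene. With every library centred on its median, 1794 genes were higher in P3 (19.5%) and 2456 lower (26.6%). These shares, and the 63.6% and 9.32% on the deposited scale, are the background for every list count that follows. Lists are further given relative to the cardiomyocyte markers, whose mean log2 change was -3.0. On that scale, added after the data were seen, only 51 genes (0.553%) were lower in P3 and 8837 were higher. Subtracting the marker mean puts the same differences between libraries into every gene, so p-values on that scale do not measure each gene's own spread.

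**Figure D2:**
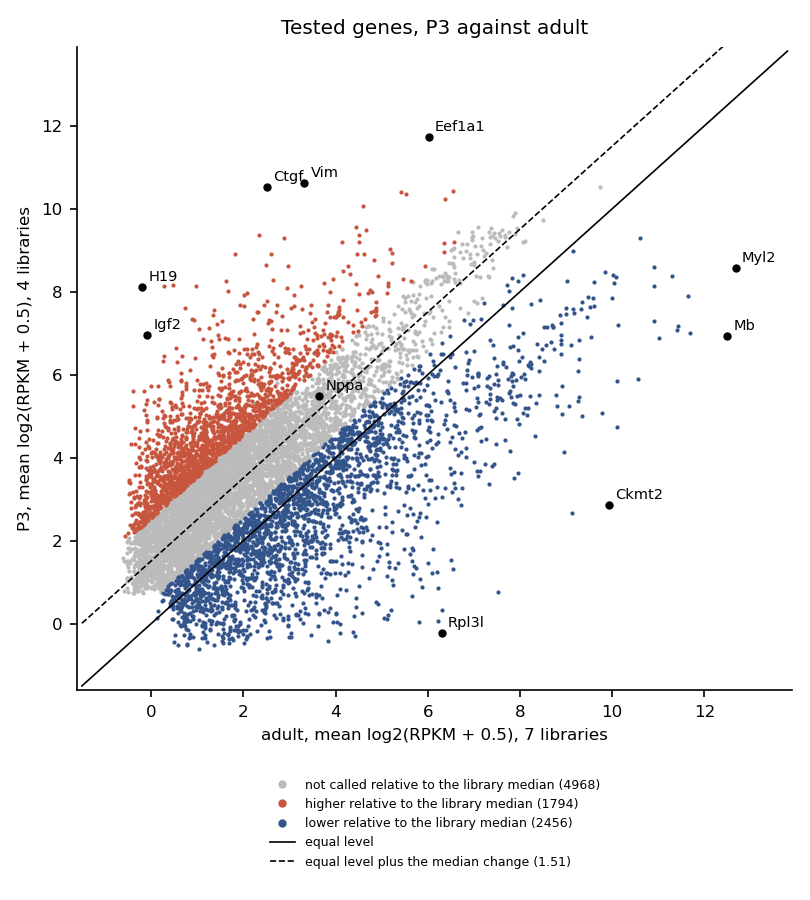
Mean log2(RPKM + 0.5) of each tested gene in adult (x axis, 7 libraries) and P3 (y axis, 4 libraries). The dashed line lies 1.51 above the line of equal level, and 1794 genes were called higher and 2456 lower relative to the library median.

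The largest falls were genes of the adult contractile and energy machinery. Ckmt2, the sarcomeric mitochondrial creatine kinase (chr13:91853387-91876885, mm10), had 782.2 to 1417 RPKM in adult libraries, with a median of 901.1. In P3 it had 31.7, 6.26, 3.52 and 2.63 RPKM, which gave a log2 change of -7.08 (SE 0.48, limma adjusted p = 2.2e-09). Every P3 library was below every adult library, and P3 replicate 1 was the highest of the 4. Such separation, met by 8.08% of tested genes, was a condition for naming the 14 falls given here. Hrc, which binds calcium in the sarcoplasmic reticulum, had 134.0 to 239.4 RPKM in adult and 4.21, 1.13, 0.547 and 0.562 in P3 (log2 change -6.75). Rpl3l, a muscle form of ribosomal protein L3 (chr17:24727820-24736143, mm10), had 54.2 to 134.3 RPKM in adult and 0.969, 0.331, 0.208 and 0.122 in P3 (log2 change -6.52, SE 0.28). No P3 library reached 1 RPKM, so Rpl3l was tested only because adult libraries were high. The last 2 P3 values are close to the 0.1 RPKM at which the table ends.

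Tcap, which caps titin at the Z-disc, fell by 6.46, with 244.9 to 1342 RPKM in adult and 30.7, 7.36, 1.67 and 2.57 in P3. Acta1, the skeletal alpha-actin, fell by 5.98 and Acss1, which activates acetate in mitochondria, by 5.77. Myoglobin (Mb), the oxygen store of the muscle cell, was the second most abundant listed gene of adult libraries at 4533 to 9306 RPKM and had 503.8, 118.7, 61.9 and 57.7 RPKM in P3 (log2 change -5.58). The remaining named falls were Cox7a1 and Fndc5 (both -5.36), Itgb1bp2 (-5.21), Plin5 (-5.01), Ephx2 (-4.99), Ankrd23 and Hfe2 (both -4.98). Each of these 14 genes was also among the 51 lower relative to the cardiomyocyte markers, with Ckmt2 at -4.08 on that scale. They were picked as the largest falls, so this follows from subtracting the markers' mean change of -3.0 and is no separate result. Without P3 replicate 1 each of the 14 fell further, Ckmt2 to -7.80 and Mb to -6.26.

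**Figure D3:**
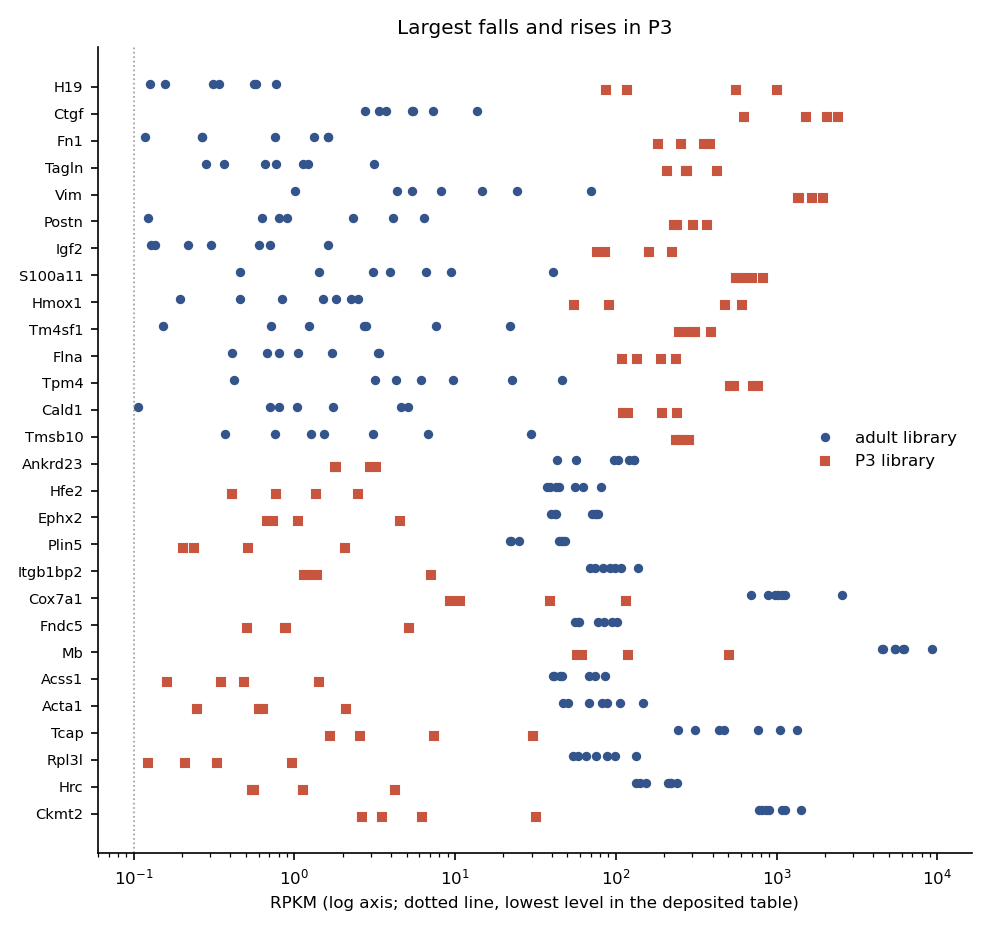
RPKM of 14 of the largest falls and 14 of the largest rises (log x axis) in each adult and P3 library, with 1 point per library. In each of the 28 genes the 4 P3 points lie apart from the 7 adult points, as the choice of these genes required. In Ckmt2 the P3 points lie between 2.63 and 31.7 RPKM.

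Sarcomere genes fell as a group. Of 14 thick filament and M-band genes 13 fell (92.9%, against 9.32% of all tested genes), with a median of -3.0, which is -4.50 relative to the median gene and 0.01 relative to the cardiomyocyte markers. Myl2, the ventricular regulatory light chain and the most abundant listed gene in adult, had 5327 to 11912 RPKM in adult and 2017, 362.1, 177.1 and 158.2 in P3 (log2 change -4.12, SE 0.63, adjusted p = 1.3e-05). The adult value of 11912 came from replicate 4, and the other 6 adult libraries ran from 5327 to 6383 RPKM. Myh6, the adult alpha myosin heavy chain, fell by 4.14, and Myl3, the ventricular essential light chain, by 3.74. Myh7, the fetal beta myosin heavy chain, had 2.17 to 22.6 RPKM in adult and 6.87, 1.56, 2.08 and 1.97 in P3, and its log2 change of -1.05 was not called (SE 0.55, limma adjusted p = 0.083). Leaving out P3 replicate 1, adult replicate 2 or adult replicate 3 made it a fall, at -1.46, -1.27 and -1.26. Part of these lists, such as Myl2 and Myh6, is also on the marker list.

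Of 23 thin filament and Z-disc genes 16 fell (69.6%, background 9.32%) and 4 rose. Their median was -2.63, -4.13 relative to the median gene and 0.38 relative to the cardiomyocyte markers. Cardiac actin (Actc1) had 2211 to 4668 RPKM in adult and 378.9, 108.6, 93.3 and 70.3 in P3 (log2 change -4.68), and troponin I (Tnni3) fell by 4.24. Myoz2, which links alpha-actinin to calcineurin at the Z-disc, had 409.7 to 742.3 RPKM in adult and 74.6, 17.0, 9.08 and 7.19 in P3 (log2 change -4.82). The 4 that rose, named after their values were seen, were Tpm2, a tropomyosin also made by smooth muscle (4.35), Pdlim1, a LIM protein of stress fibres (2.33), the stretch-responsive repeat protein Ankrd1 (1.69) and filamin C (Flnc, 1.0). Of the 4, Tpm2 alone was also called relative to the library median.

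The sequences of 2 of these genes show the muscle elements searched for in the windows of 300 bases around RefSeq starts. The 250 bases before the start are printed 5′ to 3′, with the match in capitals. Actc1 (chr2:114052876-114053125, minus strand, GRCm38.p6) carries a CArG box, the element bound by serum response factor, whose first base is 47 bases before the start. Myoz2 (chr3:123034988-123035237, minus strand) carries an AT-rich MEF2 element 33 bases before the start.
Actc1: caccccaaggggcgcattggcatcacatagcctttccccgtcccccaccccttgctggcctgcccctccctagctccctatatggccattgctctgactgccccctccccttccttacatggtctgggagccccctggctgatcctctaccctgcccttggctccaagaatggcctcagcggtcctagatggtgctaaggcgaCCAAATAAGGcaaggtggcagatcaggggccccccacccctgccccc
Myoz2: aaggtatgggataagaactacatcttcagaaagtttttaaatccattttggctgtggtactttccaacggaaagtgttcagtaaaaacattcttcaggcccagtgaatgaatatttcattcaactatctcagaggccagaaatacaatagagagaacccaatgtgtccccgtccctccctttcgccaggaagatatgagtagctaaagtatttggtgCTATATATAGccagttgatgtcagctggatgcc
The CArG box was in 14.3% of 14 windows of thick filament genes and in 17.2% of 29 windows of thin filament genes, against 1.38% of all 9599 windows. The MEF2 element was in 14.3% and 10.3%, against 0.479% of all windows. Both elements were searched on both strands, and a match describes letters, not binding.

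Genes of excitation and calcium handling fell too. Of 18 calcium cycling genes 13 fell (72.2%, background 9.32%) and 1 rose. Their median was -1.79, -3.30 relative to the median gene and 1.21 relative to the cardiomyocyte markers. Phospholamban (Pln), the brake on the calcium pump, had 1239 to 1713 RPKM in adult and 199.8, 70.2, 25.3 and 34.9 in P3 (log2 change -4.65). Atp2a2, the calcium pump itself, had 842.4 to 1538 RPKM in adult and 319.8, 136.0, 115.2 and 93.7 in P3 (log2 change -2.92), which was 0.08 relative to the cardiomyocyte markers. The gene that rose was Calr (2.26), which encodes calreticulin, a folding protein of the endoplasmic reticulum. Of 14 sarcolemmal channel and pump genes 9 fell (64.3%) and 1 rose, with a median of -1.43 that was 1.57 relative to the cardiomyocyte markers.

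Nuclear-encoded respiration genes fell together, with little difference between complexes. The count was 35 of 36 tested subunits of complex I (97.2%), 14 of 14 of complexes II and III, 11 of 14 of complex IV and 14 of 16 of ATP synthase, against 9.32% of all tested genes. The list medians were -1.84, -1.81, -1.67 and -1.58, which turn to 1.17, 1.19, 1.33 and 1.42 relative to the cardiomyocyte markers. Ndufb9 of complex I had 408.4 to 1022 RPKM in adult and 263.9, 107.4, 66.9 and 61.9 in P3 (log2 change -2.40). Sdhb of complex II fell by 2.37 and Atp5b, the catalytic beta subunit of ATP synthase, by 1.32. Atp5b had 1257 to 1968 RPKM in adult and 1348, 633.4, 451.3 and 392.7 in P3, so that P3 replicate 1 lay within the adult range. In complex IV the muscle forms moved down, while the ubiquitous forms paired with them went either way. Cox7a1 changed by -5.36 and its ubiquitous form Cox7a2 by -1.06. Cox8b changed by -4.33 and its ubiquitous form Cox8a by 1.01. The muscle form Cox6a2 fell by 4.25 and the ubiquitous form Cox6a1, at 29.3 to 112.1 RPKM in adult and 312.4, 197.0, 140.3 and 135.2 in P3, rose by 1.92 but was not called relative to the library median.

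Fuel use genes behaved by pathway. Of 33 genes of fatty acid uptake and oxidation 31 fell (93.9%, background 9.32%), with a median of -2.60 (-4.11 relative to the median gene, 0.40 relative to the cardiomyocyte markers). Fabp3, the muscle fatty acid binding protein, had 2047 to 4365 RPKM in adult and 748.3, 146.6, 60.1 and 51.2 in P3 (log2 change -4.31). Lpl, the lipase that releases fatty acids from blood lipoproteins, fell by 3.15 and the oxidation enzyme Ech1 by 3.81. The single riser, not called relative to the library median, was Cpt1a (1.89), the liver-type form of the enzyme that passes fatty acids into mitochondria. Of 26 genes of the tricarboxylic acid cycle and pyruvate entry 24 fell (92.3%, median -1.92, 1.08 relative to the cardiomyocyte markers), with Idh2 falling by 3.26. Of 18 genes of ketone, acetate and branched-chain amino acid use 16 fell (88.9%, median -2.55, 0.45 relative to the cardiomyocyte markers), among them Oxct1, the entry enzyme of ketone use, at 218.8 to 278.3 RPKM in adult and 47.9, 45.5, 34.5 and 29.9 in P3. Oxct1 was one of the falls in which P3 replicate 1 did not stand far from the other P3 libraries.

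Glycolysis genes split by isoform. Of 27 tested genes 9 rose (33.3%, background 63.6%) and 10 fell (37%, background 9.32%), with a median of -0.16 that was 2.85 relative to the cardiomyocyte markers. Slc2a4, the insulin-responsive glucose carrier of muscle, had 34.4 to 78.8 RPKM in adult and 6.65, 1.69, 1.12 and 1.11 in P3 (log2 change -4.41). Slc2a1, the ubiquitous carrier, had 1.37 to 3.72 RPKM in adult and 38.4, 57.9, 71.3 and 41.7 in P3 (log2 change 4.20). The enolase Eno1 rose by 4.33 while its muscle form Eno3 fell by 3.57, and lactate dehydrogenase B (Ldhb), the heart form, fell by 3.82.

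A ratio of 2 genes within a library depends little on how libraries are scaled, except through the pseudocount of 0.5, which pulls ratios of low genes towards 0. For 29 of 30 fixed pairs with both genes in the table, the log2 ratio of the ubiquitous or fetal form to the adult muscle form was computed in each library. In 27 of the 29 pairs every P3 ratio was above every adult ratio, and in 0 below. Each of these 27 gave an exact two-sided permutation p of 0.003, the smallest that 330 splits of 11 libraries allow, without adjustment over the pairs. The pairs were chosen with earlier results of these data known, so these p-values are not independent support. With no pseudocount, an alternative added after the data were seen, the count was also 27. The adult muscle form was the larger in the adult mean of 28 pairs and in the P3 mean of 5.

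The widest shifts were in ribosomal protein L3 and in fatty acid binding proteins. The ratio of Rpl3 to Rpl3l was -1.87 to -0.87 in adult libraries and 8.36, 9.10, 9.20 and 9.33 in P3, a difference of 10.46, or 11.98 with no pseudocount. Rpl3 itself had 17.5 to 73.5 RPKM in adult and 400.9 to 481.2 in P3. Adult libraries thus held more Rpl3l than Rpl3 per length, and P3 libraries the reverse. Fabp5 over Fabp3, the epidermal against the heart fatty acid binding protein, was -11.52 to -6.64 in adult and -1.55, 1.0, 3.12 and 3.62 in P3, a difference of 10.45. For elongation factor 1A the ratio of Eef1a1 to Eef1a2 was -2.37 to 0.01 in adult and 5.53, 7.30, 8.20 and 8.16 in P3. Enzymes of glucose use followed, with Eno1 over Eno3 at -5.21 to -4.02 in adult and 1.15, 2.97, 4.81 and 4.51 in P3. Lactate dehydrogenase Ldha over Ldhb was -2.02 to -1.72 in adult and 0.74, 2.87, 4.59 and 4.20 in P3.

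The order of myosin forms did not change sides. Myh7 over Myh6 was -8.76 to -7.51 in adult and -5.64, -5.51, -4.75 and -5.03 in P3, a difference of 3.08, so Myh6 exceeded Myh7 in every library. Of the actins, Acta2 over Actc1 was -7.92 to -5.96 in adult and 0.16, 2.68, 2.30 and 2.48 in P3. Acta2 is also a mural cell marker, Actn1 and Eef1a1 are made by most cell types, and a ratio to a muscle gene moves with any change in the share of muscle RNA. The 2 pairs whose groups overlapped were caveolins, with Cav1 over Cav3 at -4.65 to 0.89 in adult and 0.82, 3.61, 3.8 and 3.90 in P3, and the coactivators Ppargc1b over Ppargc1a, with a difference of 1.16. Both gave an exact permutation p of 0.0061.

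**Figure D4:**
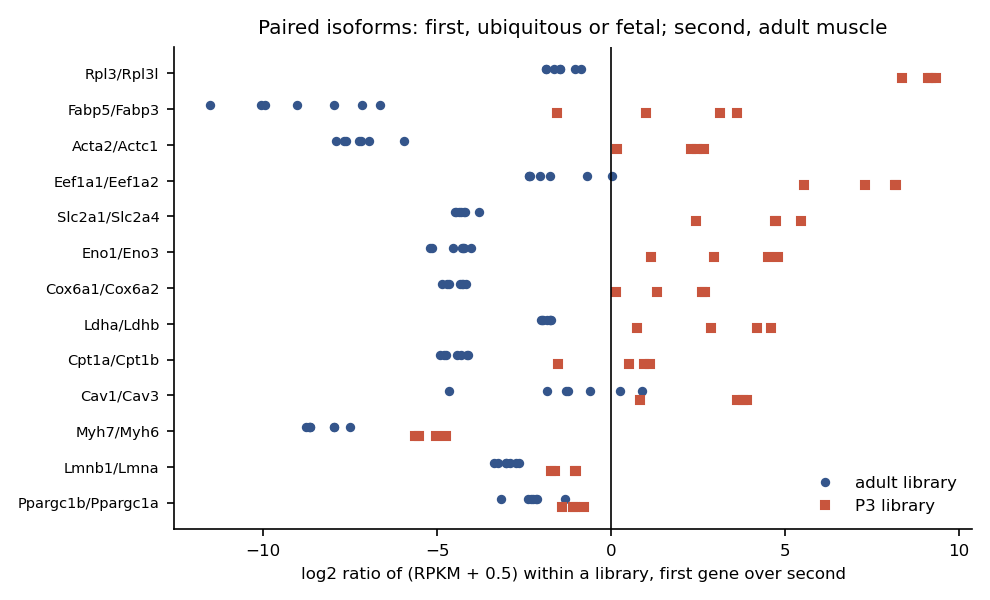
Log2 ratio within each library (x axis) of 13 pairs of related genes, first the ubiquitous or fetal form and second the adult muscle form, for 7 adult and 4 P3 libraries. P3 points lie to the right of all adult points in 11 of the pairs shown, and Rpl3/Rpl3l moves from between -1.87 and -0.87 to between 8.36 and 9.33.

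Genes of protein synthesis rose, with different sizes for each part of the machinery. All 70 cytosolic ribosomal protein genes rose (against 63.6% of tested genes), with a median of 2.05 that was 0.55 relative to the median gene. Relative to the library median 7 of the 70 were higher and 0 lower, a smaller share than the 19.5% of all tested genes. They held 10.4% to 13.4% of summed RPKM in P3 libraries against 3.06% to 6.77% in adult. All 34 genes of ribosome assembly in the nucleolus rose, with a median of 3.07 (1.56 relative to the median gene), and 29 of them were higher relative to the library median as well. Npm1, a nucleolar chaperone, had 30.5 to 46.9 RPKM in adult and 456.6, 495.7, 434.5 and 293.0 in P3 (log2 change 3.47). Nop58, a core protein of box C/D particles that methylate ribosomal RNA, rose by 4.03, the nucleolar proteins Ncl and Fbl by 3.06 and 3.33, and Wdr12, the least changed of the list and not called relative to the library median, by 1.79.

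Mitochondrial ribosomal proteins did not follow the cytosolic ones. Of 62 genes 0 rose and 5 fell by limma (8.06%, against 9.32% of all tested genes), and the median was -0.08, which was -1.59 relative to the median gene and 2.92 relative to the cardiomyocyte markers. Relative to the library median 52 of the 62 were lower (background 26.6%), and relative to the cardiomyocyte markers 61 were higher. Mrpl42, the lowest of them, fell by 2.11. Without P3 replicate 1 the count that fell was 11 of 62. Proteasome genes rose in 28 of 35 cases (80%, background 63.6%), but their median of 1.41 was -0.10 relative to the median gene. Relative to the library median 0 were higher and 3 lower. Psmc4, an ATPase of the proteasome base, rose by 2.18, but was not called relative to the library median.

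Genes of growth metabolism rose. All 15 cholesterol synthesis genes in the table, of 18 fixed, rose (background 63.6%), with a median of 3.52 (2.02 relative to the median gene). All P3 libraries were above all adult libraries in each (background 64.8%), and 11 were higher relative to the library median (background 19.5%). Msmo1, a sterol demethylase, had 1.12 to 2.27 RPKM in adult and 54.7, 61.7, 51.5 and 66.5 in P3 (log2 change 4.88). Fdps, which makes farnesyl diphosphate, rose by 3.96, and Hmgcs1, the synthase before the rate-limiting reductase, by 2.74. The P3 values of Msmo1 and Fdps differed little between libraries, unlike those of muscle genes.

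Hmgcs1 is shown for its sterol element, the letters TCACNCCAC recognised by sterol response proteins. In the 250 bases before its RefSeq start (chr13:119690101-119690350, plus strand, GRCm38.p6) the element begins 137 bases before the start.
Hmgcs1: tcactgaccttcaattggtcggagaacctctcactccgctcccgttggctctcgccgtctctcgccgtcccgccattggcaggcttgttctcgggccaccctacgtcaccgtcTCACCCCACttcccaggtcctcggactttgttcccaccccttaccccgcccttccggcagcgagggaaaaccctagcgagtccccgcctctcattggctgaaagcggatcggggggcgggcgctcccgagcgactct
The element was in 1 of 14 windows of cholesterol synthesis genes and in 1.07% of all windows, on either strand.

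Of 24 genes of the pentose phosphate, serine and nucleotide pathways 20 rose (83.3%, background 63.6%) and 0 fell (background 9.32%). Their median was 2.59 (1.08 relative to the median gene), and 13 were higher relative to the library median (background 19.5%). Psat1, an aminotransferase of serine synthesis, had 0.123 to 0.831 RPKM in adult and 49.5, 58.4, 35.6 and 19.3 in P3 (log2 change 5.65). It is counted among the rises of this list, but was tested only because P3 libraries were high. Ctps, which makes cytidine triphosphate, rose by 3.25 and Taldo1 of the pentose pathway by 2.36. Taldo1 was not called relative to the library median.

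DNA replication genes, of 41 fixed, rose in 27 of 30 tested cases (90.0%, background 63.6%), with a median of 1.87 that was 0.36 relative to the median gene. Relative to the library median 9 were higher (background 19.5%) and 2 lower (background 26.6%). Mcm3, a subunit of the replicative helicase, had 0.162 to 1.44 RPKM in adult and 17.7, 29.6, 26.3 and 28.6 in P3 (log2 change 4.76). Pcna, the sliding clamp of DNA polymerase, had 10.5 to 23.1 RPKM in adult and 116.2, 123.8, 119.4 and 76.3 in P3 (log2 change 3.02). Of 36 fixed mitosis genes 9 were tested and 7 of them rose (4 higher and 2 lower relative to the library median), with Cks1b, a partner of cyclin-dependent kinases, rising by 3.75. Of 23 genes of the G1 phase 17 rose (73.9%, against 63.6% of all tested genes), both drivers and inhibitors, but 6 were higher and 6 lower relative to the library median. The kinase Cdk4 had 7.43 to 18.2 RPKM in adult and 145.2, 160.0, 152.5 and 158.4 in P3 (log2 change 3.78), and the transcription factor Myc rose by 5.74. The inhibitor Cdkn1a, which holds cyclin-dependent kinases in check, had 0.953 to 10.2 RPKM in adult and 161.4, 182.1, 83.5 and 35.8 in P3 (log2 change 4.42). Cdk4 was even across P3 libraries while Cdkn1a was not.

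Rrm1, a subunit of ribonucleotide reductase that was chosen for its window after values were seen, rose by 3.14 (1.08 to 3.59 RPKM in adult, 20.5, 25.1, 18 and 17.6 in P3). Its 250 bases before the RefSeq start (chr7:102441445-102441694, plus strand, GRCm38.p6) hold the E2F letters TTCCCGC 67 bases before the start.
Rrm1: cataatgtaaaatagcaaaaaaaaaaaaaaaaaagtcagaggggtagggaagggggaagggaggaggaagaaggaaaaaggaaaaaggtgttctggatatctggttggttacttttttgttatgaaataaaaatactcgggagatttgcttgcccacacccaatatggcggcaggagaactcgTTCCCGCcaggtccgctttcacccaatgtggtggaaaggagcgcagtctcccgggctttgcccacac
These letters were in 38.7% of 31 windows of DNA replication genes and in 8.43% of all windows, on either strand.

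The largest rises were led by an imprinted RNA and by matrix and cytoskeleton genes. H19, a maternally expressed non-coding RNA of fetal tissue (chr7:142575529-142578143, mm10), had 0.127 to 0.766 RPKM in adult and 87.2, 117.8, 562.7 and 1003 in P3 (log2 change 8.30, SE 0.51). No adult library reached 1 RPKM, so H19 was tested only because P3 libraries were high. Its neighbour Igf2, a paternally expressed fetal growth factor, had 0.129 to 1.62 RPKM in adult and 76.3, 85.8, 161.0 and 222.7 in P3 (log2 change 7.05). Both genes were higher in P3 replicates 3 and 4 than in replicates 1 and 2, the libraries with more cardiomyocyte marker RNA. All 11 listed fetal and growth regulators, of 24 fixed, rose (background 63.6%), with a median of 3.71. All were also higher relative to the library median (background 19.5%). H19 is among these 11, and as stated it could be tested only by being high in P3.

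Ctgf, a secreted matricellular protein, had 2.76 to 13.6 RPKM in adult and 1530, 2396, 2072 and 626.6 in P3 (log2 change 8.00), which made it one of the 10 most abundant P3 genes. Fibronectin (Fn1) rose by 7.87, the smooth muscle protein Tagln by 7.68, vimentin (Vim) by 7.30 and periostin (Postn) by 7.15. S100a11 (7.04), the haem-degrading enzyme Hmox1 (6.89), Tm4sf1 (6.62), filamin A (Flna, 6.46), Tpm4 (6.41), Cald1 (6.37) and Tmsb10 (6.35) followed. In each, all P3 libraries were above all adult libraries, which was a condition for naming them and held in 64.8% of tested genes. Hmox1 was uneven in P3, at 613.6, 480.2, 91.3 and 54.6 RPKM, while Vim was even, at 1361, 1949, 1653 and 1386, against 1.02 to 69.8 RPKM in adult. Vim, Postn and Tagln are also on the fibroblast or mural marker lists.

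Non-muscle actin cytoskeleton genes rose in 31 of 32 tested cases (96.9%, background 63.6%), with a median of 4.57 (3.06 relative to the median gene). Relative to the library median 29 were higher (background 19.5%). Beta-actin (Actb) had 10.1 to 72.4 RPKM in adult and 982.1, 1458, 1282 and 706.9 in P3 (log2 change 5.46), gamma-actin (Actg1) rose by 5.0 and thymosin beta 4 (Tmsb4x), which holds actin monomers, by 4.84. Actn1, the non-muscle alpha-actinin, had 0.669 to 2.14 RPKM in adult and 104.2, 195.2, 162.7 and 107.8 in P3 (log2 change 6.07). Of 27 matrix and integrin genes 22 rose (81.5%, background 63.6%), with a median of 4.15 (2.64 relative to the median gene). Relative to the library median 21 were higher (background 19.5%) and 4 lower (background 26.6%). The basement membrane collagen Col4a1 rose by 5.05, and Sparc, which binds collagen, by 4.69. Endothelial and fibroblast marker sums rose beside these lists, as given above.

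The endothelial list itself rose in all 14 tested members (background 63.6%), with a median of 3.92 (2.41 relative to the median gene). Eng, a co-receptor for transforming growth factor beta, had 0.277 to 19.9 RPKM in adult and 159.8, 217.6, 272.0 and 399.3 in P3. Emcn, an endothelial sialomucin, rose by 5.65 and Cdh5, the cadherin of endothelial junctions, by 4.58. Fabp4, a fatty acid binding protein of capillaries, had 6.37 to 1065 RPKM in adult and 487.6, 448.8, 900.2 and 1220 in P3, so that adult replicate 4 lay within the P3 range. Decorin (Dcn), a fibroblast proteoglycan, had 0.499 to 46.0 RPKM in adult and 87.7, 222.3, 371.9 and 199.1 in P3.

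Growth and patterning signals rose on the deposited scale, where 63.6% of all tested genes rose, and less uniformly relative to the library median, where 19.5% were higher. Of 20 Hippo-YAP genes 19 rose (95%), with a median of 3.07 (1.56 relative to the median gene), and 12 were higher and 1 lower relative to the library median. Cyr61, a matricellular protein and classic target of the coactivator YAP, had 10.4 to 58.5 RPKM in adult and 618.9, 956.6, 1254 and 263.1 in P3 (log2 change 4.85). Ankrd1, at 114.9 to 237.2 RPKM in adult and 1339, 703.9, 652.8 and 204.1 in P3, rose by 1.69 but was not called relative to the library median. Ctgf, Cyr61 and Ankrd1 were all lowest in P3 replicate 4. Of 22 genes of transforming growth factor beta and BMP signalling 21 rose (95.5%, median 3.48) and 16 were higher relative to the library median, with the inhibitor of differentiation Id1 rising by 4.28. Of 21 Wnt pathway genes 19 rose (90.5%, median 2.31), but 7 were higher and 1 lower relative to the library median. Of 12 Notch, VEGF and angiopoietin genes 9 rose (75%), and 5 were higher and 2 lower relative to the library median. The rises include the ligands Apln (4.86) and Jag1 (4.68). Jag1 is in both of these lists.

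Cyr61 is shown for the letters CATTCC, bound by the TEAD partners of YAP. Its 250 bases before the RefSeq start (chr3:145649986-145650235, minus strand, GRCm38.p6) hold them 103 bases before the start.
Cyr61: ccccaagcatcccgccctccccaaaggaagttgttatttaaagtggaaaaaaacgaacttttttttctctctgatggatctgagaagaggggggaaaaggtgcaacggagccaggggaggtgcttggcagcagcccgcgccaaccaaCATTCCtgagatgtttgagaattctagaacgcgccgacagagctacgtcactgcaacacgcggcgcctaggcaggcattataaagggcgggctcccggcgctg
The letters were in 59.1% of 22 windows of Hippo-YAP genes, in 42.9% of 14 windows of thick filament genes and in 11.9% of all windows, on either strand, so they were frequent both in a list that rose and in a list that fell.

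The genes of the series title rose, each by limma on the deposited scale. Ctnnb1, which encodes beta-catenin, had 32.6 to 62.4 RPKM in adult and 268.1, 299.2, 311.7 and 359.3 in P3 (log2 change 2.64, SE 0.24, adjusted p = 4.0e-08), and remained called relative to the library median at 1.10. Cdh2, which encodes N-cadherin, had 17.0 to 32.2 RPKM in adult and 76.3, 50, 46.2 and 33.8 in P3 (log2 change 1.03, SE 0.24, adjusted p = 8.5e-04), but was -0.51 with libraries centred on their medians. It was not called without P3 replicate 1 (0.82) or without adult replicate 2 (0.95). Cdh2 was highest in P3 replicate 1, the library with most cardiomyocyte marker RNA, and Ctnnb1 was lowest there.

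Transcription and splicing factors moved in both directions. Of 23 cardiac transcription factors 10 rose (43.5%, against 63.6% of all tested genes) and 4 fell (17.4%, against 9.32%), with a median of 0.67 that was -0.83 relative to the median gene. Relative to the library median 2 were higher and 10 lower, and relative to the cardiomyocyte markers 21 higher and 0 lower. Gata4 had 8.87 to 14.9 RPKM in adult and 63.8, 40.1, 41.6 and 36.3 in P3 (log2 change 2.02), Mef2a rose by 1.98, neither of them called relative to the library median, and Mkl1, a coactivator of serum response factor, by 3.41. Hopx, a homeodomain protein without DNA binding, fell by 3.39. Of 20 metabolic nuclear receptors and coactivators 6 rose and 6 fell, and 1 was higher and 10 lower relative to the library median. Perm1, a muscle regulator of mitochondrial genes, had 31.94 to 49.96 RPKM in adult and 8.29, 1.51, 1.15 and 1.498 in P3 (log2 change -3.90). Of 19 splicing regulators 15 rose (78.9%) and 2 fell, and 7 were higher and 3 lower relative to the library median. Among them was Ptbp1, a repressor of tissue-specific exons, at 0.723 to 5.64 RPKM in adult and 111.9, 171.8, 159.0 and 121.5 in P3 (log2 change 5.87). The muscle factor Rbm24 fell by 2.06, which was 0.94 relative to the cardiomyocyte markers. Of 16 clock genes 7 rose and 2 fell, and 3 were higher and 5 lower relative to the library median.

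Interferon-induced genes rose in all 14 tested cases of 25 fixed (background 63.6%), with a median of 2.66 (1.15 relative to the median gene). Relative to the library median 8 were higher (background 19.5%). Their mean log2 level was 3.81, 4.65, 4.74 and 6.05 in P3 replicates 1 to 4 and 0.57 to 3.29 in adult libraries. Ifitm3, a membrane protein that blocks virus entry, had 0.180 to 71.8 RPKM in adult and 171.3, 398.0, 489.6 and 709.3 in P3, and B2m, the light chain of class I histocompatibility molecules, rose by 3.83. Ifit3, which was chosen for its window after values were seen, had 0.302 to 2.80 RPKM in adult and 0.953, 5.87, 1.87 and 31.8 in P3, so 1 P3 library held most of its RNA, and without it the log2 change of 1.72 was 0.84 and not called. P3 replicate 4 was the highest P3 library for Ifitm3, B2m and Ifit3, and also for the endothelial markers.

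The 250 bases before the RefSeq start of Ifit3 (chr19:34583279-34583528, plus strand, GRCm38.p6) hold 2 interferon-stimulated response elements, searched on both strands as GAAA repeated after a gap of 2 bases. They begin 156 and 122 bases before the start and are read here on the opposite strand.
Ifit3: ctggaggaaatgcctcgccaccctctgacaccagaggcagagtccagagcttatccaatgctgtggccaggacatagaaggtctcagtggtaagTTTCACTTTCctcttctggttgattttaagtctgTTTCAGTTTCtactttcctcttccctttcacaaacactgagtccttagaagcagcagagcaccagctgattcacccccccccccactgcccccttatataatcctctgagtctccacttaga
The element was in 43.8% of 16 windows of interferon-induced genes and in 2.57% of all windows.

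The remaining stress and turnover lists were mixed. The hypoxia, immediate-early and heat shock shares that rose, 70.6%, 75% and 75%, were only a little above the 63.6% of all tested genes. The antioxidant and ubiquitin ligase shares, both 33.3%, were below it. Of 17 hypoxia targets 12 rose (70.6%) and 3 fell (7 higher and 5 lower relative to the library median), with the vasodilator peptide Adm rising by 5.51 and the oxygen-sensing factor Hif1a by 3.63. Of 20 immediate-early genes 15 rose (75%) and 0 fell (5 higher and 3 lower relative to the library median), with Klf6 rising by 5.20, and their median of 1.79 was 0.28 relative to the median gene. Of 28 heat shock and endoplasmic reticulum genes 21 rose (75%), among them the stress factor Atf4 (3.42), and 3 fell, while 8 were higher and 6 lower relative to the library median. Those 3, named after their values were seen, were the small heat shock proteins Hspb6 (-4.37), Hspb7 (-3.11) and Hspb8 (-2.09), which are abundant in muscle. Of 27 antioxidant genes 9 rose and 8 fell (7 higher and 17 lower relative to the library median), with Hmox1 and Ephx2 at the extremes. Of 27 muscle ubiquitin ligases and autophagy genes 13 fell and 9 rose (17 lower and 1 higher relative to the library median), the muscle ligase subunit Asb14 falling by 4.71 and the lysosomal protease Ctsl rising by 3.74. Asb14 is counted among the falls, but was tested only because adult libraries were high.

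Natriuretic peptides, hormones of stretched and of fetal heart muscle, went apart. Nppa had 5.35 to 30.7 RPKM in adult and 240.3, 63.8, 34.7 and 6.69 in P3 (log2 change 1.83, SE 0.69, limma adjusted p = 0.021). It was not called without P3 replicate 1 (1.01) or P3 replicate 2 (1.65), nor relative to the library median (0.28). Nppb had 41.1 to 161.3 RPKM in adult and 149.8, 35.7, 21.8 and 4.75 in P3 (log2 change -1.54, limma adjusted p = 0.034), which was 1.46 relative to the cardiomyocyte markers. It was not called without P3 replicate 3 or 4 (-1.43 and -0.73) or without adult replicate 2 or 4 (-1.38 and -1.42). Both were highest in P3 replicate 1 and lowest in P3 replicate 4, in the order of the cardiomyocyte markers, and the groups overlapped in each.

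**Figure D5:**
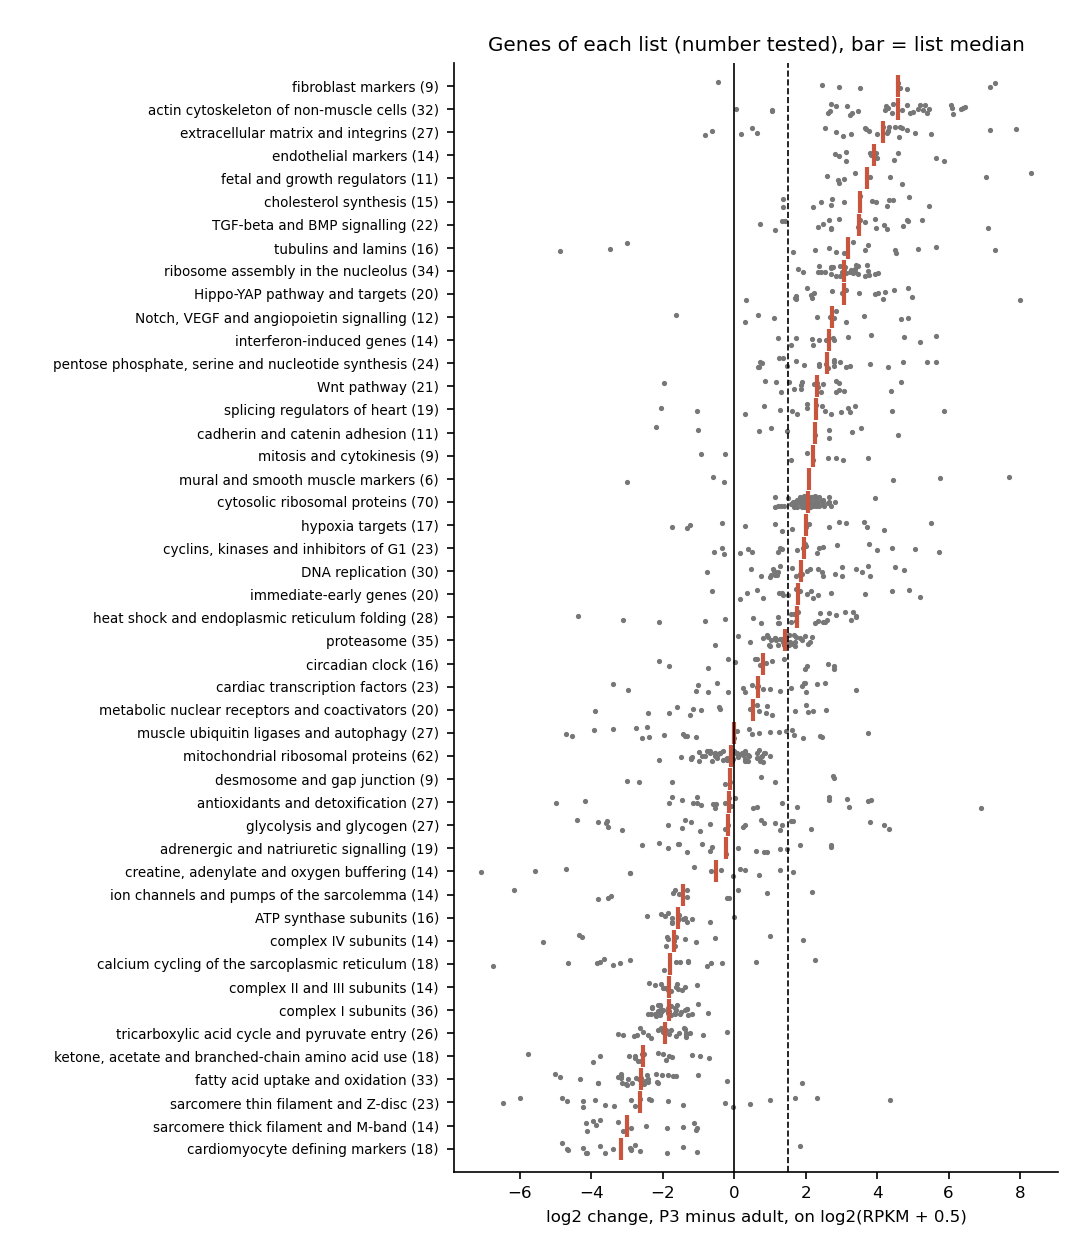
Log2 change from adult to P3 (x axis) of every tested gene in 47 fixed lists, 1 grey point per gene, with a bar at each list's median. The solid line marks no change and the dashed line the median gene at 1.51, and list medians run from -3.16 for the cardiomyocyte markers to 4.58 for the fibroblast markers.

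Short sequence elements were counted in windows of 250 bases before to 50 after RefSeq starts, which matched 7469 of the 9218 tested genes. The MEF2 element was in 2.11% of 899 windows of genes that fell and 0.267% of 5985 windows of genes that rose. The letters AAGGTCA, bound by oestrogen-related receptors, were in 5.23% and 2.54%. The letters CCGGAAGT, bound by ETS factors, were in 3.78% and 10.3%. These shares are descriptions of letters with no test, and windows of 1 gene can overlap.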

How the data were processed

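RNA-seq libraries labelled P3 (4) and adult (7) ventricular cardiomyocytes were grouped by their GEO titles, and 4 P1 libraries entered no comparison. The authors deposited 1 table of RPKM values with gene symbols. HISAT2, Partek 6.6 and mm10 are named per the submitters' processing notes; the gene annotation, strand setting, length model and cell isolation method were not given in the sources used here. Overlapping genes and near-identical copies are therefore uncertain. Of 9666 rows, 15 carry date-like names.

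Values were taken as log2(RPKM + 0.5). Genes at 1 RPKM or more in at least 4 of the 11 libraries (9218) were fitted with limma 3.58.1 in R 4.3.3 (trend), with Benjamini-Hochberg adjustment over all of them; a call needed an adjusted p below 0.05 with a change of 1 log2 unit or more either way. The fit was also run on simulated data. It recovered 91% of 100 genes changed by 1.5 and 100% of 100 changed by 3 (log2). Of 8808 genes left without a change it called 2. Most genes had no change in that simulation, whereas the median gene of the real libraries changed by 1.51. These rates therefore cannot be carried over to the calls made on the real libraries. Reads were recovered from RPKM steps only to describe depth. Ratios of gene pairs were tested by exact permutation over 330 splits. Promoter windows came from RefSeq, GRCm38.p6, and gene positions from GENCODE on the same build.

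Named genes were the 2 of the series title, the 15 largest non-overlapping rises and falls among genes of at least 10 RPKM, in each list the 3 most abundant and the 2 extreme members, pair members and the 10 highest genes of each group. Some genes that it gives are not reported here, and genes outside it are marked as such. The gene lists, pairs and members were chosen with earlier results of these data known. Alternatives changed the pseudocount, filter, scaling, fit and libraries.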

Additional observations from a re-analysis of the deposited data

Results flagged for a closer look

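Values of the named genes and list levels were examined within each group for a single library far from the others. Of 332 groups of values 24 held one, where chance gives about 1 in 20, and 6 of the 24 were in P3 replicate 1. In P3 replicate 1 these were Itgb1bp2 at 7.05 RPKM, Lpl at 169.3, Perm1 at 8.29 and Asb14 at 0.840, each the highest of the 4 P3 libraries. The mean log2 level of desmosome and gap junction genes (4.67) and of glycolysis genes (5.76) was also far from the other P3 libraries there.

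Adult replicate 4 was the highest adult library, by a wide gap, for Myl2 at 11912 RPKM, Slc25a4, the muscle ADP/ATP carrier, at 4118, Cox7a1 at 2540, Cox6a2 at 2028, Sdhb at 745.8, Ppia at 237.7, Hopx at 105.8, Rpl3 at 73.5, Pcna at 23.1 and Psat1 at 0.831. Mean log2 levels were likewise high in it for complex I (8.49), complex IV (9.69), ATP synthase (9.71), cytosolic ribosomal proteins (7.76) and the proteasome (5.61). Genes of adult muscle mitochondria and genes that rose in P3 are thus both among its high values. Adult replicate 7 stood apart for Myc at 3.09 RPKM and for Asb14 at 25.2 RPKM. P3 replicate 4 stood apart for Pcna, at 76.3 RPKM.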

How the results depend on the processing

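Scaling set the balance of calls. The 5863 genes that rose and 859 that fell became 1794 and 2456 with libraries centred on their medians, 2301 and 2148 with quantile normalization, 3298 and 1702 with equal sums outside the 100 highest genes, and 8837 and 51 with centring on cardiomyocyte markers, so rises were 87.2% of calls as deposited, 42.2% with median centring and 51.7% with quantile normalization. Leaving out single libraries gave 5747 to 5951 rises and 793 to 970 falls. Pseudocount, filter, fit without trend and adult subsets kept both counts within 1.5 times. Of the 119 genes followed, or 118 with the filter at 5 RPKM, which removes Ifit3, Cdh2 reversed with median centring (-0.51), with quantile normalization (-0.11) and with equal sums outside the 100 highest genes (-0.06). With centring on cardiomyocyte markers 11 reversed: Slc25a4 (0.10), Myh7 (1.95), Atp2a2 (0.08), Nppb (1.46), Ndufb9 (0.61), Sdhb (0.63), Atp5b (1.69), Cpt1b (0.13), Oxct1 (0.41), Mrpl42 (0.89) and Rbm24 (0.94). The cause of these changes was not tested. The replicate block, with numbers 1 to 4 shared between groups, gave 6097 rises and 765 falls. Same-numbered libraries correlated at -0.42, -0.07, -0.05 and 0.01 in their deviations, which shows no pairing by number. These deviations also carry the differences between libraries within groups, so they cannot show that no preparation was shared. Of 119 genes 117 kept direction and call under the block, with Atp5b and Ankrd1 no longer called. Depth limits low adult values, in libraries 1 to 4 most.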

Other observations

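Microtubule and nuclear lamina genes were not described above. Of 16 tubulin, lamin and filament genes 13 rose and 3 fell (11 higher and 3 lower relative to the library median), with a median log2 change of 3.18 (1.67 relative to the median gene). Tuba1a, a tubulin of growing cells and neurons, rose by 5.64 and Tubb5 by 5.15, while Tuba8 and Tuba4a fell by 4.86 and 3.48. Lamin B1 (Lmnb1), the lamin of most embryonic nuclei, rose by 4.51 and lamin A (Lmna) by 2.86, so the ratio of Lmnb1 to Lmna was higher in every P3 library (-1.72 to -1.02) than in every adult library.

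Junction genes moved in both directions. Of 9 desmosome and gap junction genes 3 rose (33.3%, against 63.6% of all tested genes) and 3 fell (2 higher and 5 lower relative to the library median), with desmin (Des) falling by 2.99, desmoplakin (Dsp) by 2.67 and Dsc2 by 1.74, while Tjp1 rose by 2.79, Gjc1 by 2.75 and connexin 43 (Gja1) by 1.14. Of 11 cadherin and catenin genes 8 rose (72.7%), and 5 were higher and 2 lower relative to the library median. Among the rises were Ctnnd1 (3.56) and vinculin (Vcl, 3.30). Of the 2 that fell, Ctnna3, the heart and testis form of alpha-catenin, changed by -2.18. Of 14 genes of creatine, adenylate and oxygen buffering 6 fell and 2 rose (11 lower and 0 higher relative to the library median). Of 19 genes of adrenergic and natriuretic signalling 6 fell and 5 rose (11 lower and 2 higher). The genes named in these 2 paragraphs beyond the rule were chosen after their values were seen.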
